A study of Mus musculus with 12 samples.

Results

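The renin-angiotensin, adrenomedullin and endothelin pathways were followed in lymph node stromal cells (SCs) through 6 genes: the peptide precursors Agt and Adm, the angiotensin II receptors Agtr1a and Agtr2, and the endothelin receptors Ednra and Ednrb. They were taken by gene symbol from a table of 10253 genes, in which all 6 were found. The 6 genes were chosen by pathway and by how their RPKM levels differed between the groups in earlier results of these libraries, so their values are given as a description without a p-value. Other genes of the same pathways were tested against all 9758 genes that passed a filter on low values.

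Angiotensinogen, the product of Agt, is cut by renin and then by angiotensin-converting enzyme to angiotensin II. The type 1 receptor, encoded in mice by Agtr1a and its close copy Agtr1b, carries most of the contractile, growth and matrix responses to this peptide, whereas the type 2 receptor, encoded by Agtr2, is abundant in fetal mesenchyme, usually low in adult tissue, and opposes many of the type 1 responses. Adrenomedullin, the product of Adm, is a vasodilator peptide that acts through the receptor Calcrl with a Ramp protein, maintains the lymphatic endothelium, and is induced by low oxygen. Endothelin-1, a vasoconstrictor peptide, acts through the receptors encoded by Ednra, typical of smooth muscle and fibroblasts, and Ednrb, typical of endothelium and the neural crest lineage.

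The 12 libraries came from CD45-CD24-CD31-Pdpn+ SCs, sorted from nodes draining the gut (mesenteric, mLN) or the skin (peripheral, pLN). The mice were BALB/c, housed either germ-free (GF) or specific pathogen-free (SPF), and each of the 4 groups had 3 libraries. SPF mice carried the CD90.1 allele on the BALB/c background and were 7 to 12 weeks old. GF mice were derived by cesarean section in another colony, kept in isolators and 6 to 10 weeks old, so housing, colony, allele and age range cannot be told apart. For the pLN libraries, the titles give the site and the source field names the tissue as mesenteric and skin-draining; the titles were followed. The labels do not say whether libraries came from separate animals or pools, and p-values measure only the spread between these libraries. Depth, as recovered from the table, was 4623211 to 14090548 reads per library. All 8 markers of the sorted cells were present (Pdpn 53.9 to 80.5 RPKM, reads per kilobase of gene, scaled to the library's mapped reads), while 8 of 10 blood endothelial markers summed to 1.24 to 3.96 RPKM, the other two being Tek at 10.7 to 84.8 RPKM and Plvap at 9.55 to 194 RPKM, and the 5 lymphatic endothelial markers summed to 0.399 to 1.41 RPKM. The 10 pericyte and smooth muscle markers in the table summed to 33.9 to 63.6 RPKM in mLN SPF, 50.3 to 136 in mLN GF, 553 to 606 in pLN SPF and 581 to 793 in pLN GF.

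The promoters of the 3 genes with the largest differences are shown because each bears the same core motif close to its start. Sequences of 300 bases, from 250 before to 50 after the annotated start, were taken from RefSeq (GRCm38.p6), where 5 of the 6 genes were matched, all but Agtr1a. Capitals mark the TATA box core TATAA, searched on the strand of the gene, and, in Adm, the core GCGTG of the element bound by hypoxia-inducible factor (HIF), which reads CACGC on the strand shown.
Agtr2 (chrX:21484374-21484673, + strand): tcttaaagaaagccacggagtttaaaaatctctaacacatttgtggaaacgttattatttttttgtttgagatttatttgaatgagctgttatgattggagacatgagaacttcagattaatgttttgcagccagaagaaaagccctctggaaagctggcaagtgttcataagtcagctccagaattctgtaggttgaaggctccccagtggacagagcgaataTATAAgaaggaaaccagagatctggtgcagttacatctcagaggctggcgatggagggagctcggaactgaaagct
Adm (chr7:110627407-110627706, + strand): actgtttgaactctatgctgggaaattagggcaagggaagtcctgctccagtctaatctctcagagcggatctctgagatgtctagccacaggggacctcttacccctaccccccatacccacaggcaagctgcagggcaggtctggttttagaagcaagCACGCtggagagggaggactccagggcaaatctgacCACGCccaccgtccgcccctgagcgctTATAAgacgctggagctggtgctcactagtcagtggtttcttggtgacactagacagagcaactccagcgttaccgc
Agt (chr8:124569657-124569956, - strand): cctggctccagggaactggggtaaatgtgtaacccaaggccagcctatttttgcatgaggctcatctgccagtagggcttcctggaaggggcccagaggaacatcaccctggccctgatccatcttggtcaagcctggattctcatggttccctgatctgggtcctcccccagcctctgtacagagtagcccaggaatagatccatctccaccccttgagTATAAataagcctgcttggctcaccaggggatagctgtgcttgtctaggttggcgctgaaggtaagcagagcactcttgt
With the start base as position 0, TATAA lay at -26 to -22 in Agtr2, at -27 to -23 in Adm and at -30 to -26 in Agt, and it was present in 17.5% of the 32851 windows of the same length. GCGTG was found in Adm at -90 to -86 and at -54 to -50, against 32.4% of all windows on either strand, and also in Ednrb. The other motifs were searched on both strands: the second HIF core ACGTG (19.6% of windows), the AP-1 site TGANTCA (7.81%), the cyclic AMP response half-site TGACG (20.8%) and the glucocorticoid receptor half-site AGAACA (19.0%). None of these lay in the 3 windows shown, and the window of Ednra held no motif searched. No match in the 3 windows shown overlapped another.

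Agtr2 was the gene of this set whose level differed most between housing conditions, and it was higher in SCs of GF mice at both sites. On GRCm38 it lies on chromosome X, 21484544 to 21489164, on the + strand, and is protein-coding. In mLN SPF the 3 libraries held 1.63, 2.67 and 1.83 RPKM, and in mLN GF they held 9.43, 9.53 and 9.16 RPKM. In pLN SPF they held 2.79, 3.64 and 2.74 RPKM, and in pLN GF they held 19.5, 15.2 and 18.5 RPKM. Every GF library lay above every SPF library, and no group overlapped the next in the order pLN GF, mLN GF, pLN SPF, mLN SPF, although the lowest pLN SPF library (2.74 RPKM) was close to the highest mLN SPF library (2.67 RPKM). These levels rested on 53 to 904 reads per library.

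Mean Agtr2 was 4.59-fold higher in GF than in SPF mice in mLN (9.37 ± 0.192 against 2.04 ± 0.549 RPKM, SD, n = 3 each) and 5.80-fold higher in pLN (17.7 ± 2.22 against 3.06 ± 0.503 RPKM, SD, n = 3 each). On the log2(RPKM + 1) scale, which understates changes of low genes, the fitted SPF minus GF difference was -1.78 ± 0.14 (SE) in mLN and -2.21 ± 0.14 in pLN. By size these ranked 12 and 10 among the 9758 differences of each comparison. The alternatives to the processing moved them between -2.26 and -1.69 in mLN and between -2.57 and -2.14 in pLN. Agtr2 was also lower in mLN than in pLN, by -0.42 ± 0.14 in SPF and -0.85 ± 0.14 in GF mice. In these bulk libraries, fewer cells of a type and less RNA per cell cannot be told apart. Of the 10 pericyte and smooth muscle markers, 2 passed between housings in mLN, in the same direction as Agtr2: the SPF minus GF difference of Acta2 was -1.92 ± 0.30 (limma, Benjamini-Hochberg adjusted p = 0.0015) and that of Tagln was -1.46 ± 0.24 (adjusted p = 0.00222). In pLN none of the 10 passed (2 at an unadjusted p under 0.05, and 0 by voom), and the differences of Acta2 and Tagln were -0.37 ± 0.30 (adjusted p = 0.486) and -0.54 ± 0.24 (adjusted p = 0.175). The part of those cells in the Agtr2 difference was not tested.

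**Figure D1:**
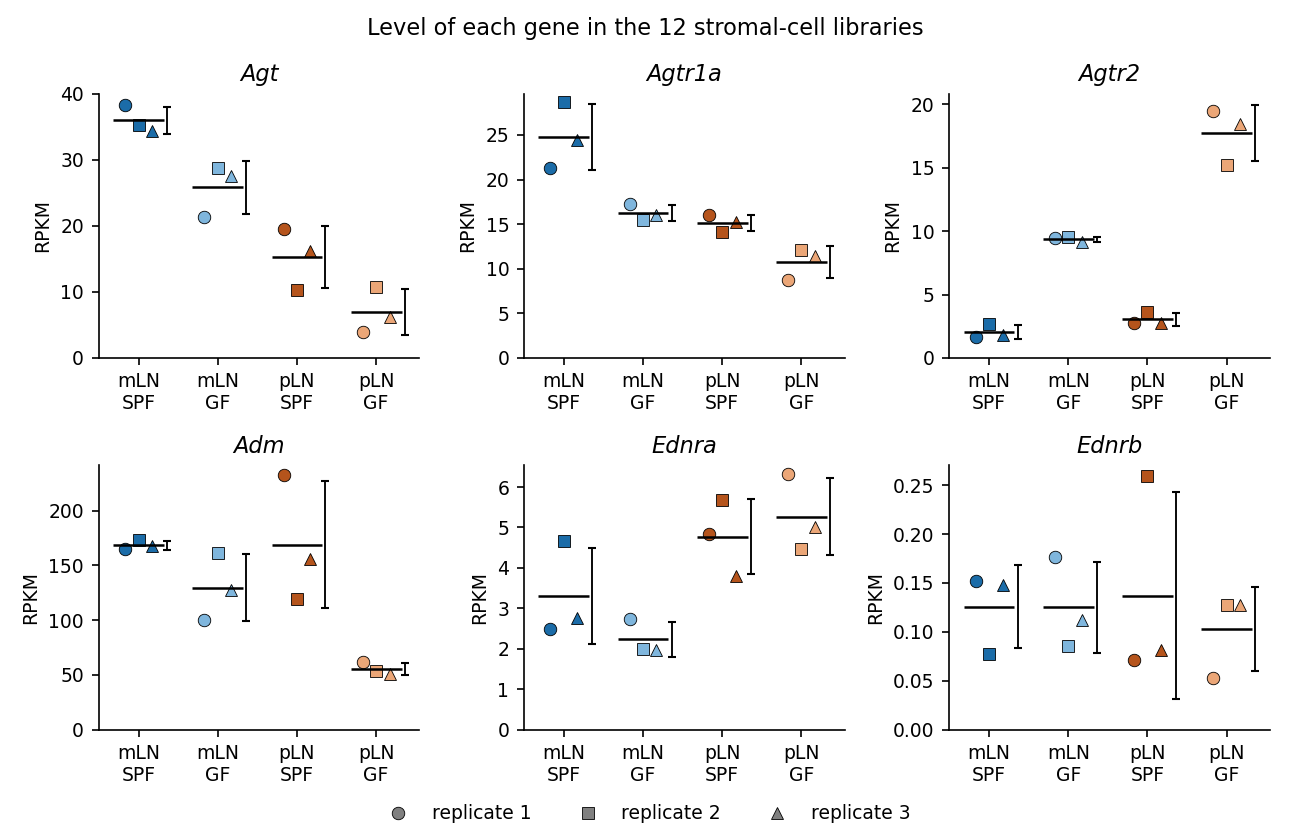
Level of each gene in RPKM (vertical axis, from 0) in the 12 libraries, by group on the horizontal axis. Each symbol is 1 library, the horizontal bar is the mean of 3 and the bracket is 1 SD to either side. Agtr2 is high in all GF libraries, Agt is highest in mLN SPF, and Adm is lowest in pLN GF.

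The type 1 receptor gene Agtr1a (chromosome 13, 30336441 to 30382867, + strand) ran in the other direction, with smaller differences. Its libraries held 21.3, 28.7 and 24.4 RPKM in mLN SPF, 17.3, 15.4 and 16.0 in mLN GF, 16.0, 14.1 and 15.3 in pLN SPF, and 8.74, 12.1 and 11.4 in pLN GF. SPF libraries lay above GF libraries at each site, and mLN libraries above pLN libraries in each housing, while mLN GF and pLN SPF overlapped. The fitted SPF minus GF difference was 0.57 ± 0.14 in mLN and 0.46 ± 0.14 in pLN, and the mLN minus pLN difference was 0.67 ± 0.14 in SPF and 0.56 ± 0.14 in GF. All 4 values stayed under 2-fold. Reads of Agtr1b, a near copy of Agtr1a not analysed here, could have been shared with it in counting.

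With the receptors moving in opposite directions, their balance differed between the 4 groups without overlap. The RPKM scale is per length, so levels of different genes can be compared only as far as the lengths used hold. The lengths implied by the recovered reads were 2995 bases for Agtr1a and 4471 for Agtr2, against 2786 and 3326 in the annotation. Ratios and shares of the 2 genes are therefore approximate. Agtr1a exceeded Agtr2 13.0-, 10.7- and 13.4-fold in the libraries of mLN SPF and 5.74-, 3.89- and 5.56-fold in those of pLN SPF. In mLN GF the ratio was 1.83, 1.62 and 1.75, and in pLN GF it was 0.449, 0.798 and 0.619, so that Agtr2 was the higher of both receptors in pLN GF only. Agtr2 made up 7.53% ± 0.850 of the summed receptor level in mLN SPF, 16.8% ± 3.13 in pLN SPF, 36.6% ± 1.44 in mLN GF and 62.1% ± 6.70 in pLN GF (SD, n = 3 each). The sum of both receptors varied less, with means of 26.8, 18.2, 25.6 and 28.5 RPKM in the same order. The rule had used the levels behind this ratio, and it carries no test.

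**Figure D2:**
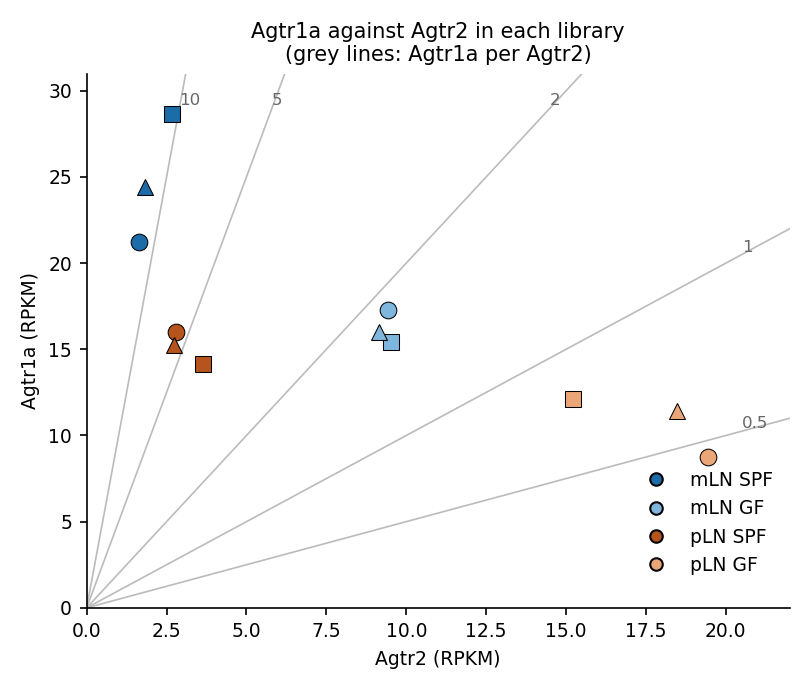
Agtr1a (vertical axis, RPKM) against Agtr2 (horizontal axis, RPKM); each symbol is 1 library, coloured by group, with circle, square and triangle for replicates 1, 2 and 3, and grey lines join points of equal Agtr1a per Agtr2. The mLN SPF libraries sit above the line for 10, and the pLN GF libraries below the line for 1.

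Agt, the source of all angiotensin peptides, was detected in every library and was highest in mLN. The gene lies on chromosome 8, 124556534 to 124569706, on the - strand. Its libraries held 38.3, 35.3 and 34.3 RPKM in mLN SPF, 21.3, 28.8 and 27.5 in mLN GF, 19.5, 10.2 and 16.2 in pLN SPF, and 3.85, 10.8 and 6.20 in pLN GF. The groups were separate along this order except the last pair, where pLN GF replicate 2 lay above pLN SPF replicate 2. Mean Agt was 2.35-fold higher in mLN than in pLN of SPF mice and 3.73-fold higher in GF mice, with fitted differences of 1.22 ± 0.26 and 1.84 ± 0.26. The SPF minus GF difference was 0.47 ± 0.26 in mLN and 1.09 ± 0.26 in pLN. The pLN value depended on single libraries and ranged from 0.78, without pLN GF replicate 1, to 1.42. The mLN minus pLN difference in SPF mice fell to 0.98 without pLN SPF replicate 2.

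Of the peptidases that act on angiotensin peptides, Enpep and Mme passed by site in both housings and Anpep in GF mice, and the others tested did not. Enpep, which converts angiotensin II to angiotensin III, was higher in mLN in both housings (47.2 ± 9.01 RPKM in mLN SPF, 10.1 ± 1.02 in pLN SPF, 27.3 ± 2.62 in mLN GF and 5.50 ± 1.14 in pLN GF, SD, n = 3 each), and its mLN minus pLN difference was 2.11 ± 0.15 in SPF (limma, adjusted p = 2.67e-08) and 2.14 ± 0.15 in GF (adjusted p = 2.71e-08). Mme, the neprilysin gene, whose product degrades many vasoactive peptides, went the other way, with 2.74 to 3.76 RPKM over the mLN libraries and 25.5 to 53.7 over the pLN libraries, and differences of -3.23 ± 0.18 (adjusted p = 2.41e-09) and -2.96 ± 0.18 (adjusted p = 6.9e-09). Anpep, which converts angiotensin III to angiotensin IV, was higher in mLN of GF mice by 1.06 ± 0.20 (adjusted p = 0.000507), against 0.42 ± 0.20 in SPF (adjusted p = 0.12). The call on Anpep was lost without pLN GF replicate 1, with a difference of 0.82, or without mLN GF replicate 1, with 0.99.

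Ace, the converting enzyme, was abundant at 35.5 to 134 RPKM. It passed no comparison at 2-fold: its mLN minus pLN difference was -0.03 ± 0.25 in SPF (limma, adjusted p = 0.945) and 0.78 ± 0.25 in GF (adjusted p = 0.0252), and its SPF minus GF difference in pLN was 0.88 ± 0.25 (adjusted p = 0.0382). Enpep was higher in SPF at an adjusted p under 0.05 but under 2-fold, by 0.75 ± 0.15 in mLN (adjusted p = 0.00947) and 0.78 ± 0.15 in pLN (adjusted p = 0.00593). Agtrap, whose product binds the type 1 receptor and promotes its internalisation, showed 0.44 ± 0.10 in mLN (adjusted p = 0.0199) and 0.39 ± 0.10 in pLN (adjusted p = 0.0241), also under 2-fold. Ren1 was not analysed here. Of 24 other angiotensin genes listed, 15 were tested: 1 rose and 1 fell in mLN against pLN of SPF mice, and 2 rose and 1 fell in GF mice. The shares of all genes that rose and fell were 3.98% and 6.41% in SPF and 4.57% and 6.88% in GF mice.

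Agt and some of its partners shared an order among the 3 libraries of pLN GF. Of the 5 tested genes of the set, 2 (Agt and Agtr1a) were lowest in replicate 1 and highest in replicate 2. Of the 25 other pathway genes, 7 were (Ace, Ackr3, Anpep, Ctsd, Ece1, Edn1 and Ramp2), as were 11.8% of all tested genes. Ace, for example, held 35.5, 99.0 and 63.8 RPKM and Ackr3 28.8, 62.6 and 50.6 RPKM. Agtr2 and Ednra had the reverse order, as did Mme and 4 more pathway genes and 26.1% of all tested genes. These genes were listed for this order after their values were seen. Of 7 adipocyte markers 2 were in the table, Cfd at 0 to 1.26 RPKM and Fabp4 at 11.5 to 76.2 RPKM. By site Fabp4 moved in the direction of Agt, higher in mLN by 1.68 ± 0.27 in SPF (limma, adjusted p = 0.000116) and 1.65 ± 0.27 in GF (adjusted p = 0.000123). Fabp4 had the order of Agt in pLN GF, deviating from its group mean by -0.78, 0.68 and 0.10 on the log2 scale against -0.62, 0.66 and -0.04 for Agt. In pLN SPF its order differed, with 0.22, 0.08 and -0.31 against 0.37, -0.49 and 0.12 for Agt. By housing Fabp4 ran opposite to Agt and did not pass. Its SPF minus GF difference was -0.44 ± 0.27 in mLN (limma, adjusted p = 0.456) and -0.46 ± 0.27 in pLN (adjusted p = 0.299), against 0.47 and 1.09 for Agt. The part of adipocytes in the site difference and the spread of Agt was not tested.

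Adm was the most abundant gene of the set, above 96.7% of all genes in the table by mean level, and its low level in pLN GF set that group apart. It lies on chromosome 7, 110627661 to 110629820, on the + strand. The libraries held 165, 173 and 168 RPKM in mLN SPF, 99.9, 162 and 128 in mLN GF, 232, 119 and 156 in pLN SPF, and 61.6, 53.8 and 50.8 in pLN GF. All 3 pLN GF libraries lay below the other 9, which overlapped between pLN SPF and mLN SPF and between pLN SPF and mLN GF. Mean Adm was 3.05-fold higher in SPF than in GF pLN (169 ± 57.9 against 55.4 ± 5.55 RPKM, SD, n = 3 each), a fitted difference of 1.54 ± 0.20, whereas in mLN the difference was 0.40 ± 0.20. By site, the mLN minus pLN difference was 0.05 ± 0.20 in SPF and 1.19 ± 0.20 in GF mice. The difference between these was -1.14 ± 0.29, and it ranged from -1.36 to -0.89 over the alternatives.

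The adrenomedullin receptor was present at both sites and the decoy receptor differed. Calcrl, the signalling subunit, held 8.27 to 13.4 RPKM over the mLN libraries and 13.8 to 23.3 over the pLN libraries, with mLN minus pLN differences of -0.68 ± 0.18 in SPF (limma, adjusted p = 0.0089) and -0.57 ± 0.18 in GF (adjusted p = 0.0254), under 2-fold. Its partner Ramp2 held 50.5 to 108 RPKM and did not pass (0.11 ± 0.19, adjusted p = 0.701 in SPF, and -0.22 ± 0.19, adjusted p = 0.415 in GF). Ramp3 stayed at 0 to 0.141 RPKM, under the filter, and Ramp1 was not analysed here. Ackr3, which binds adrenomedullin without G protein signalling and also takes up the chemokine Cxcl12, was higher in mLN (251 to 290 RPKM in SPF and 176 to 221 in GF) than in pLN (53.0 to 74.4 and 28.8 to 62.6), by 2.10 ± 0.22 (adjusted p = 1.34e-06) and 2.15 ± 0.22 (adjusted p = 9.38e-07). Ackr3 is also used as a marker of a CD34+ SC subset, and the makeup of the sorted cells was not measured in these libraries.

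Adm2, the gene of the related peptide intermedin, was lower in mLN, at 0 to 0.774 RPKM against 2.44 to 4.34 in pLN, with differences of -1.90 ± 0.17 in SPF (limma, adjusted p = 2.33e-07) and -1.44 ± 0.17 in GF (adjusted p = 4.54e-06). Pam, which amidates adrenomedullin to its active form, held 19.1 to 39.2 RPKM and passed no comparison at 2-fold. Its largest difference was -0.54 ± 0.16 for SPF minus GF in pLN (adjusted p = 0.0411). Of 14 listed adrenomedullin genes, 8 were tested, of which 1 rose and 2 fell by site in each housing. The shares of all genes that rose and fell were 3.98% and 6.41% in SPF and 4.57% and 6.88% in GF mice.

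Since Adm is a known target of HIF, 24 other HIF target genes were followed as a list. None of the 19 tested passed between housing conditions in pLN, where Adm differed most (limma, 3 at an unadjusted p under 0.05, and 1 called by voom on recovered reads). Among all tested genes only 1.04% passed there, so nothing is read from this count. The median difference over this list in pLN was -0.05, against -0.06 over all genes. Pfkfb3, a glycolysis regulator gene named here after its values were seen, was the only one at an adjusted p under 0.05 and ran opposite to Adm, with an SPF minus GF difference of -0.94 ± 0.20 in pLN (adjusted p = 0.0102), under 2-fold. Vegfa, the angiogenic growth factor gene, had a difference of 0.34 ± 0.22 in pLN (adjusted p = 0.368), and Slc2a1, a glucose transporter gene, one of -0.18 ± 0.16 (adjusted p = 0.526). By site, Slc2a1 was lower in mLN by -2.55 ± 0.16 in SPF (limma, adjusted p = 5.29e-09) and -2.76 ± 0.16 in GF (adjusted p = 3.18e-09). The part of HIF in the Adm difference was not tested.

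The endothelin receptors were low, and what was detected was almost all Ednra. Ednra (chromosome 8, 77663031 to 77724464, - strand) held 2.48, 4.66 and 2.75 RPKM in mLN SPF, 2.73, 1.98 and 1.98 in mLN GF, 4.84, 5.68 and 3.81 in pLN SPF, and 6.31, 4.47 and 5.02 in pLN GF. Along the order of means, pLN GF, pLN SPF, mLN SPF and mLN GF, each group overlapped the next. mLN and pLN were separate in GF mice, with a fitted difference of -0.95 ± 0.18, and overlapped in SPF mice, with -0.45 ± 0.18. The GF value passed 2-fold with a pseudocount of 0.1 (-1.20) and with voom (-1.31). Without mLN GF replicate 1 it was -1.06, and without pLN GF replicate 2 it was -1.05. The pericyte and smooth muscle markers were higher in pLN too, 8 of 10 passing in each housing, and their part in the Ednra difference was not tested. Exons of Ednra overlap those of 4933431K23Rik on the opposite strand, and without strand information their reads cannot be told apart.

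Ednrb (chromosome 14, 103814625 to 103844402, - strand) held 0.0531 to 0.259 RPKM, from 3 to 11 reads in a library, so it fell under the filter and no difference was detectable at this depth. Ednra accounted for 93.9% to 99.2% of the summed level of both endothelin receptors.

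The ligand gene Edn1 was higher in mLN, at 11.7 to 18.8 RPKM against 1.81 to 5.91 in pLN. Its mLN minus pLN difference was 1.22 ± 0.25 in SPF (limma, adjusted p = 0.00115) and 1.71 ± 0.25 in GF (adjusted p = 4.72e-05), the opposite direction to the fitted differences of Ednra. Ece1, the converting enzyme that releases endothelin-1, was also higher in mLN, by 0.93 ± 0.11 (adjusted p = 8.39e-06) and 0.83 ± 0.11 (adjusted p = 2.33e-05), both under 2-fold. Edn1 did not pass between housing conditions, with -0.16 ± 0.25 in mLN (adjusted p = 0.812) and 0.33 ± 0.25 in pLN (adjusted p = 0.445). Edn3 was not analysed here. Of 8 listed endothelin genes, 4 were tested, of which Edn1 rose and Mme, listed in all 3 pathways, fell by site in each housing. The shares of all genes that rose and fell were 3.98% and 6.41% in SPF and 4.57% and 6.88% in GF mice.

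**Figure D3:**
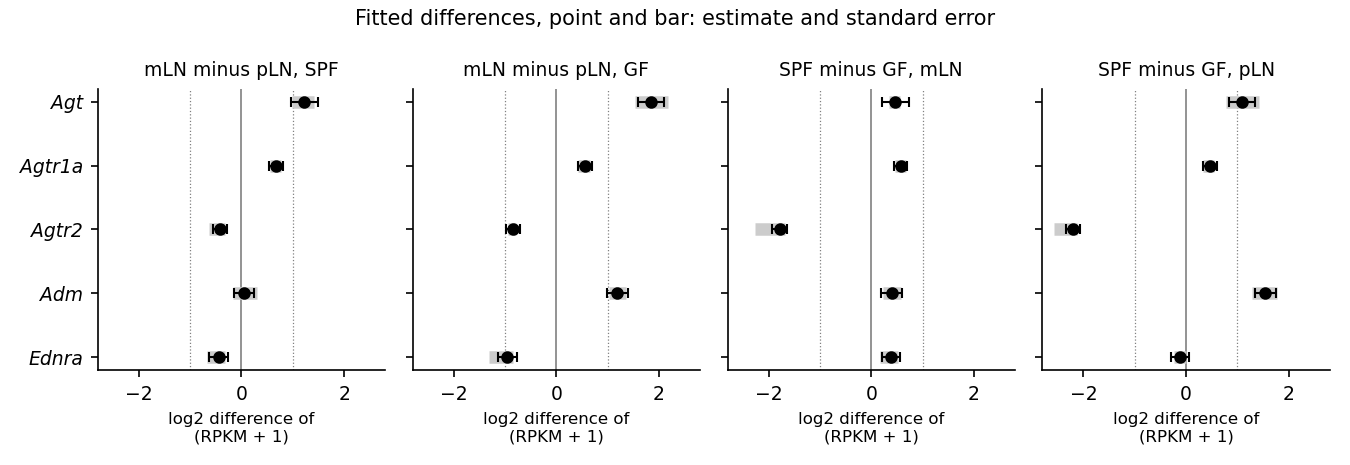
Fitted log2(RPKM + 1) difference (horizontal axis) of 5 genes in 4 comparisons. Points are estimates, black bars are 1 SE to either side, grey bars span the alternatives to the processing and dotted lines mark 2-fold. Agtr2 lies beyond 2-fold lower in SPF than in GF at both sites, and Agt beyond 2-fold higher in mLN than in pLN in both housings.

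Over the 5 genes of the set that passed the filter, the number past 2-fold and an adjusted p under 0.05 was 1 for mLN against pLN in SPF (Agt), where 10.4% of all tested genes passed, and 2 in GF (Agt and Adm), where 11.4% passed. For SPF against GF it was 1 in mLN (Agtr2), where 0.717% passed, and 3 in pLN (Agtr2, Adm and Agt), where 1.04% passed. The groups did not overlap for 3 of 5 genes by site in SPF and 5 of 5 in GF, against 43.5% and 50.2% of all genes, and for 4 of 5 by housing in mLN and 3 of 5 in pLN, against 25.9% and 27.2%. No gene of the set passed for the difference of the site effect between housings, where 0.215% of all genes passed; Adm did so without pLN SPF replicate 2, at -1.36. Since these contrasts chose the genes, nothing is read from the counts, and the location and housing comparisons share libraries.

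The other pathway genes were counted in the same way. Of 25 tested of 43 listed over the 3 pathways, 3 rose and 2 fell in mLN against pLN of SPF mice (3.98% and 6.41% of all genes) and 4 rose and 2 fell in GF mice (4.57% and 6.88%). None passed for housing in mLN (limma, 5 at an unadjusted p under 0.05, and 0 by voom on recovered reads), and 1 passed in pLN. The shares of all genes were 0.717% in mLN and 1.04% in pLN. For the difference of the site effect between housings none passed either (3 at an unadjusted p under 0.05, and 0 by voom).

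**Figure D4:**
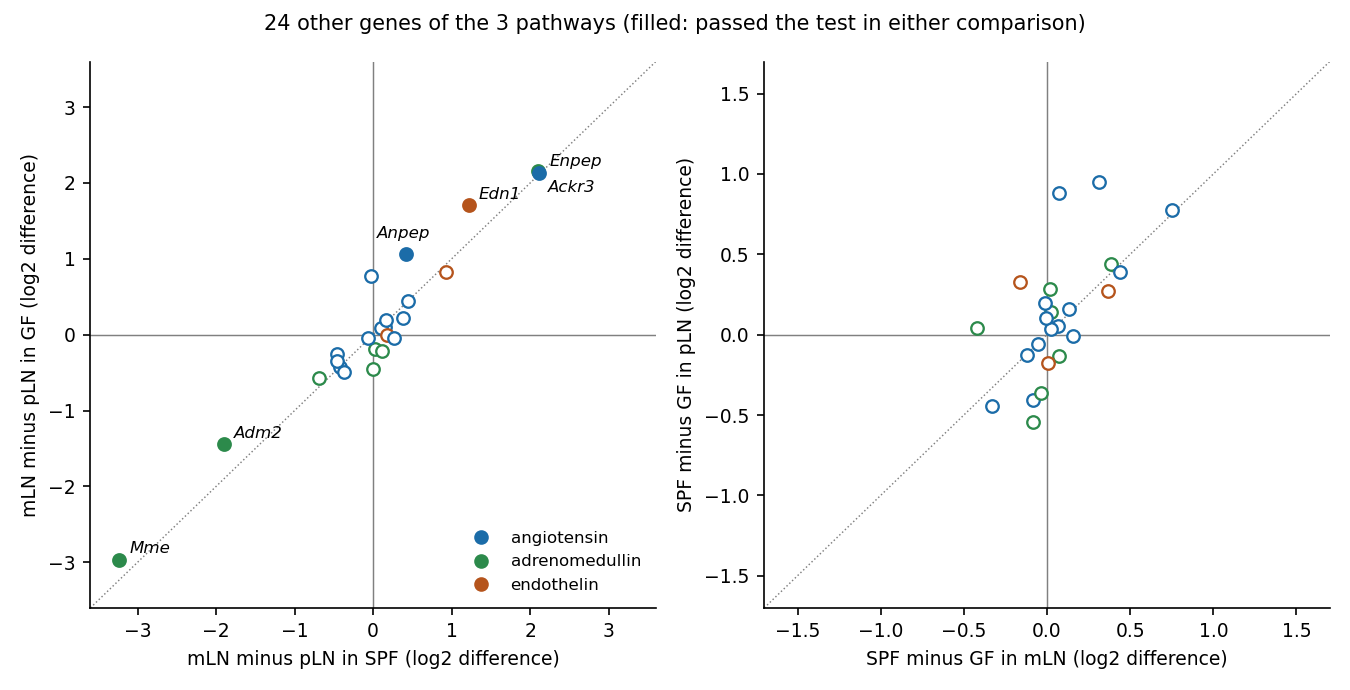
Log2(RPKM + 1) differences of 24 of the 25 other pathway genes, with mLN minus pLN in SPF (horizontal) against GF (vertical) on the left, and SPF minus GF in mLN (horizontal) against pLN (vertical) on the right. Filled points passed in either comparison, colours give the pathway (Mme is in all 3), and the dotted line marks equal differences. Mme and Adm2 lie lower left and Enpep, Ackr3 and Edn1 upper right on the left, and no point is filled on the right.

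Genes that couple these receptors to G proteins or end their signals were followed as a further list. Of 32 listed coupling and desensitisation genes, 29 were tested. In mLN against pLN, 4 fell in SPF and 7 in GF mice and none rose, while 6.41% and 6.88% of all genes fell; the list's median difference was -0.07 in SPF and -0.31 in GF, against 0.09 and 0.00014 over all genes. Rgs5, a pericyte gene whose product shortens signals of Gq- and Gi-coupled receptors, fell by 4.20 ± 0.31 on the log2 scale in SPF (limma, adjusted p = 3.31e-08) and by 4.49 ± 0.31 in GF (adjusted p = 1.82e-08). Rgs16, another member of that family, fell by 3.23 ± 0.36 (adjusted p = 2.9e-06) and 2.93 ± 0.36 (adjusted p = 7.37e-06). Rgs4 and the adenylyl cyclase gene Adcy4 also passed in both housings, with differences of -1.43 and -1.13 for Rgs4 and -1.74 and -1.77 for Adcy4. Rgs2, Rgs3 and the arrestin gene Arrb1 passed in GF only, at -1.10, -1.30 and -1.12, with -0.72, -0.65 and -0.70 in SPF. The difference of the site effect between housings did not pass for any of the 29 (limma, 4 at an unadjusted p under 0.05, and 0 by voom). Among all tested genes 0.215% passed for it. Of the genes that fell, 3 of 4 in SPF and 5 of 7 in GF were Rgs genes. Rgs5 is a common pericyte marker, the 10 pericyte and smooth muscle markers had median differences of -3.10 in SPF and -2.54 in GF, and the part of those cells in the fall of these genes was not tested.

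Receptors of other vasoactive signals split by site in both directions. Of 33 listed, 14 were tested, of which 4 rose and 8 fell in mLN of SPF mice, and 5 rose and 7 fell in GF mice. Among all tested genes 3.98% rose and 6.41% fell in SPF mice, and 4.57% rose and 6.88% fell in GF mice. The receptors of natriuretic peptides Npr1 (1.95 ± 0.24 in SPF, adjusted p = 7.89e-06) and Npr2 (1.28 ± 0.12, adjusted p = 4.58e-07), the bradykinin receptor gene Bdkrb2 (1.38 ± 0.15, adjusted p = 3.47e-06) and the adrenergic receptor gene Adra1b (2.98 ± 0.18, adjusted p = 4.82e-09) were higher in mLN by limma. The adrenergic receptor gene Adra2a (-3.45 ± 0.14, adjusted p = 8.57e-11), the substance P receptor gene Tacr1 (-3.55 ± 0.22, adjusted p = 4.13e-09), the vasopressin receptor gene Avpr1a (-2.36 ± 0.19, adjusted p = 7.77e-08) and the sphingosine 1-phosphate receptor gene S1pr3 (-2.76 ± 0.15, adjusted p = 1.86e-09) were lower. The nitric oxide receptor subunits Gucy1a3 (-2.48 ± 0.22) and Gucy1b3 (-1.43 ± 0.17) were lower as well, as was S1pr1 (-1.51 ± 0.15). In GF mice these 11 genes passed in the same direction. Some rested on few reads at the lower site. In SPF mice Bdkrb2 had 1 to 10 reads per library in pLN, against 36 to 48 in mLN. Adra2a had 5 to 10 in mLN, against 498 to 625 in pLN. The pericyte and smooth muscle markers fell with the lower genes, 8 of 10 in each housing, and their part in these differences was not tested. None of the 14 passed between housing conditions (limma, 4 in mLN and 1 in pLN at an unadjusted p under 0.05, and 0 by voom in both). Among all tested genes 0.717% passed in mLN and 1.04% in pLN.

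The genes closest in pattern to each gene of the set were found by the root mean square difference of log2(RPKM + 1), each gene centred on its own mean, over the 12 libraries. Nearest to Agtr2 were Tsc22d3 (0.289), the gene of the glucocorticoid-induced leucine zipper protein, Fkbp5 (0.379), a co-chaperone of steroid receptors, and Klf15 (0.399), a transcription factor, against a spread of 1.06 for Agtr2 itself. Tsc22d3 held 28.7 to 31.1 RPKM in mLN SPF, 123 to 148 in mLN GF, 31.8 to 39.4 in pLN SPF and 235 to 303 in pLN GF. Fkbp5 held 8.49 to 15.3, 28.7 to 42.5, 9.85 to 13.7 and 42.7 to 62.8 RPKM in the same order, and Klf15 held 3.84 to 4.47, 12.8 to 16.9, 9.34 to 11.2 and 23.2 to 35.5 RPKM. As with Agtr2, every GF library of these 3 genes lay above every SPF library. They were chosen for likeness over these same 12 libraries, so sharing the pattern of Agtr2 is in part built into the choice.

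Nearest to Agt were Metrnl (0.115), encoding a secreted meteorin-like factor, Igfbp6 (0.172), an insulin-like growth factor binding protein gene, and Pla1a (0.237), a secreted phospholipase gene, against a spread of 0.94 for Agt. Group means of Metrnl were 156, 121, 72.8 and 33.8 RPKM in mLN SPF, mLN GF, pLN SPF and pLN GF. Metrnl also had the order of Agt within the pLN groups, with 95.6, 51.6 and 71.2 RPKM in pLN SPF and 23.5, 44.9 and 33.0 RPKM in pLN GF. In the mLN groups the full order was not shared. Metrnl held 180, 137 and 150 RPKM in mLN SPF, against 38.3, 35.3 and 34.3 for Agt. In mLN GF it held 104, 129 and 130 RPKM, against 21.3, 28.8 and 27.5 for Agt. The likeness to Agt too is in part built into the choice. Adm had no neighbour as close, with Osr1 at 0.292, Rps4l at 0.307 and Plk3 at 0.321 against its own spread of 0.69. The nearest to Agtr1a were Aox1, Pir and Abca6 at 0.123 to 0.138 against a spread of 0.42, and Acat2 at 0.166 and Gbp9 at 0.171 were among the 3 nearest to Ednra, against 0.44.

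**Figure D5:**
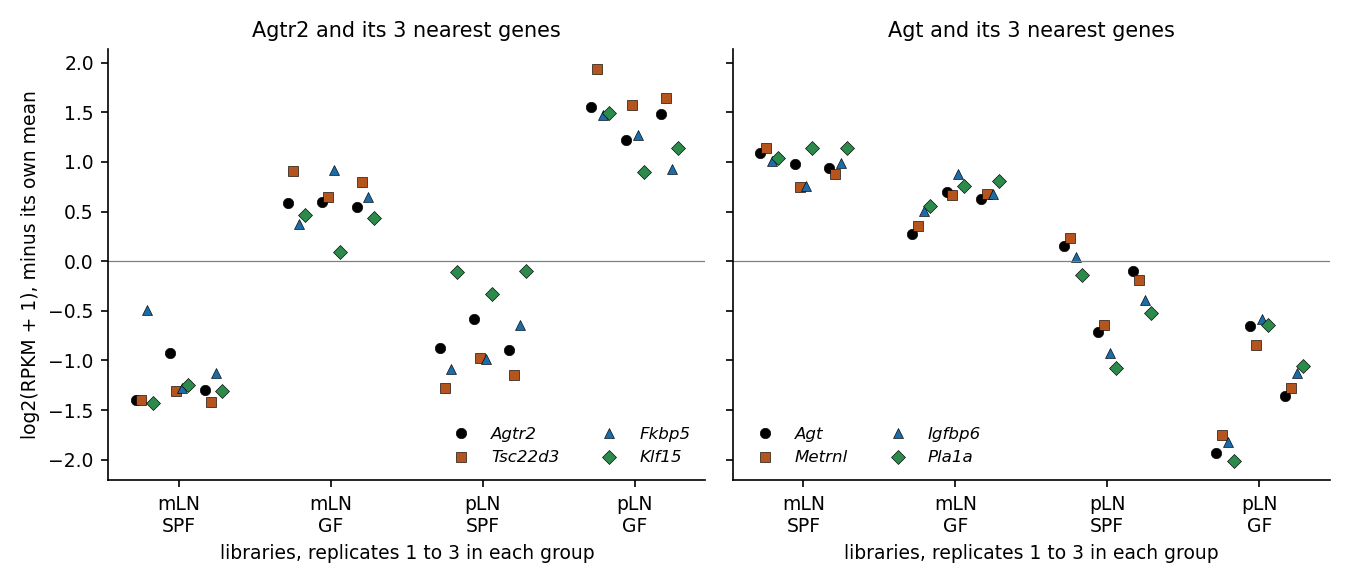
Level of Agtr2 (left) and Agt (right) with their 3 nearest genes in each library, as log2(RPKM + 1) minus the gene's own mean over the 12 libraries (vertical axis), grouped along the horizontal axis; each symbol is 1 gene in 1 library. All 4 genes on the left are above 0 in every GF library and below 0 in every SPF library, and the genes on the right share the low value of replicate 2 in pLN SPF and of replicate 1 in pLN GF. The nearest genes were chosen for likeness over these libraries.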

How the data were processed

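CD45-CD24-CD31-Pdpn+ SCs were profiled by bulk RNA sequencing, with SMART-Seq v4 amplification, Nextera XT libraries and single reads of 50 bases without strand information. The authors aligned reads to GRCm38 with TopHat2 1.2.0, counted them with HTSeq 0.12.4 and deposited RPKM values. The deposited table also held 4 columns of log2 fold changes and 4 columns of adjusted p-values from the authors' DESeq2 comparisons (8 in all), which were not used. Gene symbols of 18 genes had been turned into dates. Per gene, RPKM values were whole multiples of 1 read for 99.9% of genes (tolerance 1e-05), and these recovered reads gave the depth; 6 genes without such a unit were left out. Positions came from GENCODE M21, in which 9954 symbols matched 1 gene.

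Genes with at least 1 RPKM in at least 3 libraries were tested (489 left out, 9758 kept) on log2(RPKM + 1) with limma 3.58.1 in R 4.3.3, all 12 libraries in 1 fit of the 4 groups (8 residual degrees of freedom, 15.1 after moderation). A gene passed, and is said to rise or fall, at a Benjamini-Hochberg adjusted p under 0.05 over all tested genes and at least 2-fold. The study's methods call genes on counts; the RPKM table led to limma. The scripts were tested on simulated data. The members, gene lists and tests were chosen with earlier results of these data known. Genes named were the 6 members, fixed pathway partners, the 3 nearest genes per member and markers of other cells beside a result. Listed genes that passed were to be named up to 6 per list and comparison. More were named from the coupling and vasoactive lists, and some listed genes that did not pass, such as Agtrap and Vegfa, were named too.

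Same-numbered mLN and pLN libraries deviated together in SPF mice (r = 0.262, 0.457 and 0.182 for replicates 1, 2 and 3, across genes). In GF mice r was 0.230, 0.218 and 0.0801, and over all 18 same-numbered pairs it ranged from -0.340 to 0.457. The labels do not say that equal numbers share an animal or day, and the main fit had no replicate block. Its SEs and p-values therefore ignore any such pairing, and replicate blocks were run only as alternatives. Alternatives were a pseudocount of 0.1, no filter, median-of-ratios scaling, limma moderation with a trend, voom on recovered reads and a replicate block. Further alternatives were a fit of only the libraries of the groups compared, and leaving out each library. Some genes and their results are not reported here.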

Additional observations from a re-analysis of the deposited data

Results flagged for a closer look

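F2r, which encodes the thrombin receptor PAR1 and was among the vasoactive genes tested, differed between housings in its site effect. The difference of the mLN minus pLN values was -0.79 ± 0.14 (SE) on the log2 scale (limma interaction term, adjusted p = 0.0298). F2r held 9.15 to 9.83 RPKM in mLN SPF, 12.5 to 14.0 in mLN GF, 7.16 to 7.73 in pLN SPF and 5.45 to 6.05 in pLN GF, without overlap between groups. It was higher in mLN by 0.31 in SPF and by 1.09 in GF mice, and its SPF minus GF difference was -0.46 in mLN and 0.33 in pLN. The interaction was under 2-fold.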

How the results depend on the processing

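No result past the thresholds changed sign under the alternatives run. Among values not past them, the site difference of Adm in SPF mice (0.05, from -0.17 to 0.30) and the housing difference of Ednra in pLN (-0.12, from -0.23 to 0.0055) did. The number of genes that passed for housing in mLN was 70, and it was 144 with a pseudocount of 0.1 and 125 with voom; the pathway genes among them were 0, and 1 with a pseudocount of 0.1. For housing in pLN the number was 101, and it was 170 with a pseudocount of 0.1 and 171 with voom; the pathway genes were 1, and 2 with median-of-ratios scaling. Leaving out each library in turn gave 61 to 99 genes for housing in mLN (pathway genes 0 to 0), 92 to 140 in pLN (1 to 3), 959 to 1100 for location in SPF (5 to 6), 1019 to 1225 in GF (5 to 7) and 10 to 36 for the interaction (0 to 1). With the replicate block the counts were 1013, 1118, 70, 101 and 25 for location in SPF and GF, housing in mLN and pLN and the interaction. A replicate block within each housing, added after seeing the data, gave 1013 and 1119 for location, and moved the interaction from 21 to 41 genes. The cause of these shifts was not tested. Named calls lost without 1 library, all for falling under 2-fold or the adjusted p, were Rgs4 in GF (-0.96 without pLN GF replicate 1), Rgs2 in GF (-0.96 without pLN GF replicate 2) and Anpep as given above. For Agt in pLN, the housing value was under the thresholds without pLN SPF replicate 1 or 3 or pLN GF replicate 1 or 3. Depth limits Ednrb, Ramp3 and other genes of a few reads.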

Other observations

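Eno1, an enolase gene of glycolysis and one of the listed HIF targets, was left out of every test because its values had no common read unit. It is listed at 5.98 to 7.20 RPKM in mLN SPF, 6.60 to 7.67 in mLN GF, 40.9 to 53.9 in pLN SPF and 4.55 to 6.03 in pLN GF. Since these values could not be traced to whole reads, whether the listed level in pLN SPF is a real one could not be checked. Gapdh and Ldha, glycolysis genes of the same list, did not share the high level of pLN SPF: Gapdh held 31.8 to 44.7 RPKM there against 43.8 to 52.8 in pLN GF, and Ldha 119 to 149 against 136 to 154.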
